A study of Mus musculus with 4 samples.

Results

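The motile cilia genes described here are 70 of the 54152 rows of one gene table of whole mouse uterus. They were chosen by a rule on symbols that uses no measured value, but with earlier results of these data known. The rule took 29 symbols of Cfap followed by a number, 12 of Dnah, 4 of Dnaaf, 5 of Tekt, 8 of Rsph, 3 of Drc and 9 genes by name (Foxj1, Mcidas, Hydin, Spag6, Spag16, Spag17, Ccdc39, Ccdc40 and Sntn). A further term for Dnai symbols matched 0 rows. Dnaic2, a symbol which that term does not match, is given below with the further axoneme and assembly genes. The samples were 2 libraries labelled P38α dd and 2 labelled P38α ff, each made from uteri of C57 mice at pregnancy day 4. By the title of the series the comparison is between P38α knockout and wild-type uteri; p38α is a stress-activated protein kinase encoded by Mapk14. The Cre driver, the cells in which the gene was deleted, the exons removed, the age of the mice and the number of animals behind each library are not stated in the labels or headers. Separate animals are not named for the libraries of a group either, and the p-values therefore reflect the spread between these 4 libraries, which may be technical.

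Total gene counts were 24619850 and 30868922 in the dd libraries, and 32451670 and 30202955 in the ff libraries. Mapk14 itself had 2481 and 3429 counts in the dd libraries, against 3074 and 2710 in the ff libraries (log2 fold change 0.28, SE 0.0897, edgeR adjusted p = 0.120). The targeted transcript was therefore not lower in the libraries labelled dd, and every direction given here is one between libraries labelled dd and libraries labelled ff. At these depths 3 counts correspond to 0.0900 to 0.127 CPM, the count scaled to library size.

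Motile cilia are beating cell projections built on a microtubule axoneme. Dynein arms on the outer microtubule doublets provide the force, radial spokes and a central apparatus regulate the beat, and the nexin-dynein regulatory complex links neighbouring doublets. In the female reproductive tract, multiciliated epithelial cells are best known from the oviduct, and in some species they also occur among the luminal and glandular cells of the endometrium. Sperm tails contain a closely related axoneme. Several of the genes also act in non-motile cilia or outside cilia.

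Most of the motile cilia genes were at very low levels in these uteri. On the deposited FPKM scale, which is a level per length, the mean over the 4 libraries was under 0.1 for 25 of the 70 genes and under 1 for 53; it reached 5 in 7. Cfap58 and Drc7 were listed at 0 in all 4 libraries, and another 19 genes had 1 to 20 counts in the 4 libraries together. The median level was 0.249 FPKM over the 70 genes and 0.648 FPKM over the 46 that passed the filter on low counts, against 4.22 FPKM over all 18530 genes that passed it. The 24 genes that did not pass had at most 38 counts in all and received no test in the fit with all 4 libraries and this filter. Several genes that define motile ciliated cells were at or near 0: Sntn, which encodes a protein of the ciliary tip, had 0 and 0 counts in the dd libraries and 1 and 0 in the ff libraries, and Spag17, of the central apparatus, had 0 and 2 counts in the dd libraries and 1 and 0 in the ff libraries. The highest levels among the Cfap genes were those of Cfap36, with 969 and 1020 counts in the dd libraries and 1212 and 1203 in the ff libraries (log2 fold change -0.01, edgeR adjusted p = 0.977; the sign changed when single libraries were left out), and of Cfap20, with 11.7 and 13.9 FPKM in the dd libraries and 10.8 and 10.6 FPKM in the ff libraries.

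**Figure D1:**
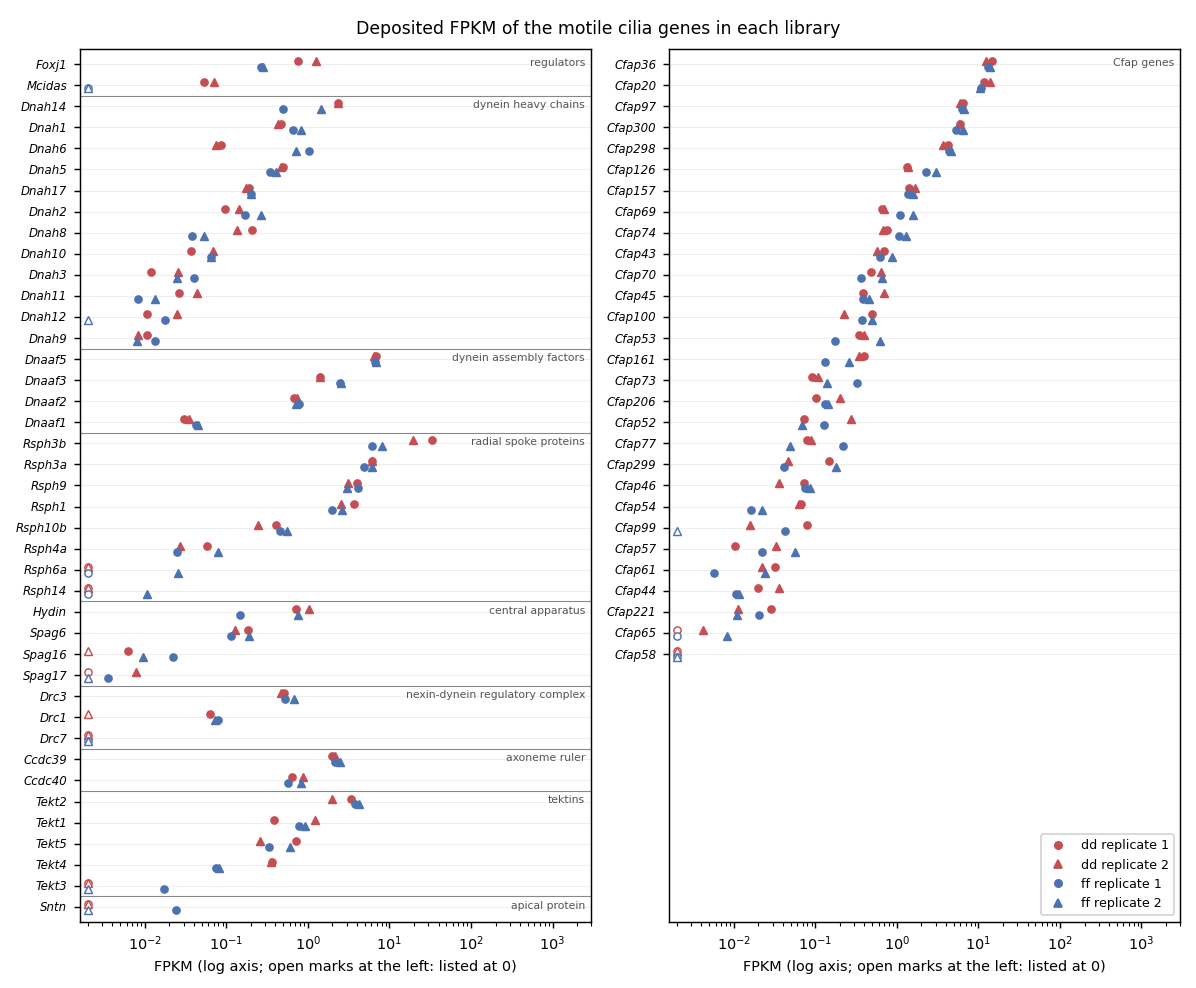
Deposited FPKM (log axis) of all 70 motile cilia genes, grouped by role, with 1 mark per library (red, labelled dd; blue, labelled ff; circle, replicate 1; triangle, replicate 2; open marks at the left edge, listed at 0). Most genes lie under 1 FPKM, and Rsph3b, Dnah6, Tekt4 and Foxj1 are among the genes whose red and blue marks stand well apart.

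Of the 46 tested genes, 4 rose in the dd libraries at an adjusted p under 0.05 (Foxj1, Rsph3b, Dnah8 and Tekt4), 1 fell (Dnah6) and 41 did not pass the test. These are 8.70% higher and 2.17% lower, beside 4.52% higher and 3.86% lower among all 18530 genes tested, and counts this small are not read as particular to the motile cilia genes. The median log2 fold change was -0.01 over the 46 genes and 0.00 over all tested genes, and the median size of the change without regard to sign was 0.33 for the 46 and 0.29 for all. The 2 libraries of each group did not overlap for 25 of the 46 genes (11 with dd above, 14 with dd below), which is 54.3%, beside 62.8% of all tested genes (31.6% with dd above, 31.3% with dd below). At an unadjusted p under 0.05 there were 6 genes higher and 6 lower in the dd libraries, out of 46, beside 29.3% of all tested genes in either direction. Fewer motile cilia genes were called with any single library left out. Fewer of all tested genes were called too, since 1 group then held a single library. A lost call therefore does not show dependence on the library left out. With dd replicate 1 left out, edgeR called 1 motile cilia gene higher and 1 lower, beside 3.11% of all tested genes in either direction, and with dd replicate 2 left out again 1 and 1, beside 1.81%. With ff replicate 1 left out it called 0, beside 0.466% (13 of 47 at an unadjusted p under 0.05, beside 19.7% of all genes in that fit), and with ff replicate 2 left out 2 higher and 1 lower, beside 6.16%. DESeq2's Wald test called 4 higher and 4 lower, beside 7.88% higher and 6.97% lower among all its tested genes.

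**Figure D2:**
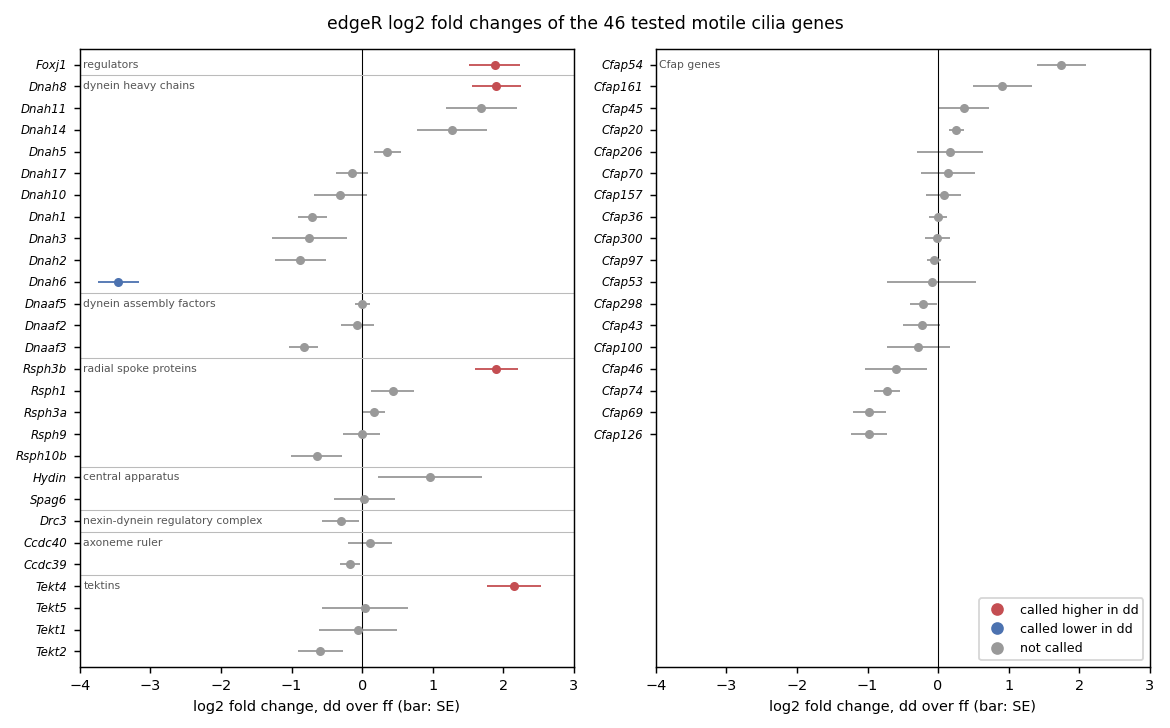
edgeR log2 fold changes, libraries labelled dd over libraries labelled ff, of the 46 tested motile cilia genes by role (bar, SE; red, called higher in dd; blue, called lower in dd; grey, not called). The 5 called genes belong to 4 role groups, and the 18 tested Cfap genes are all grey.

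Foxj1 encodes the forkhead transcription factor that drives expression of motile cilia genes. It had 47 and 99 counts in the libraries labelled dd, against 23 and 23 in the libraries labelled ff. Both dd libraries lay above both ff libraries, although the dd libraries differed between themselves. The mean was 2.63 ± 0.903 CPM in the dd libraries and 0.714 ± 0.0335 CPM in the ff libraries (SD, n = 2 each), a 3.68-fold difference (log2 1.88, SE 0.358, edgeR adjusted p = 0.0465). The call did not survive leaving out any one library: the adjusted p was 0.0569, 0.130, 0.175 and 0.111 without dd replicate 1, dd replicate 2, ff replicate 1 and ff replicate 2 in turn, with log2 fold changes of 1.47 to 2.19. The call was also lost with limma-trend on log2(FPKM + 0.5), a scale that understates the change of low genes (1.92-fold, adjusted p = 0.0661). DESeq2's Wald test called Foxj1 higher (adjusted p = 0.00754). Mcidas, the multicilin gene that starts the multiciliated cell programme, had 3 and 5 counts in the dd libraries and 0 and 0 in the ff libraries. With 3 counts put in place of 0 for the whole ff group, as a floor, the dd level would be 3.19-fold higher, which is not a measured fold. That value leaves out counting error in the dd libraries, and the gene was too low to be tested.

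Regulators of multiciliated cells outside the 70 genes were read from a separate list of 13. Of its 10 tested genes, 2 rose in the dd libraries and 0 fell, beside 4.52% higher and 3.86% lower among all tested genes. The median log2 fold change of the list was 0.14. Gmnc, which encodes geminin coiled-coil protein and acts upstream of Mcidas and Foxj1, had 22 and 26 counts in the dd libraries, against 6 and 5 in the ff libraries (log2 fold change 2.36, SE 0.363, edgeR adjusted p = 0.0325). The groups were far apart, and the ratio of summed counts, scaled to summed library sizes, was 5.21. Its counting interval of 2.67 to 11.1 covers counting error only. Rfx2, a transcription factor that acts with FOXJ1 on cilia genes, had 863 and 1502 counts in the dd libraries and 669 and 743 in the ff libraries (log2 fold change 0.97, SE 0.187, edgeR adjusted p = 0.0476). Its dd libraries differed from each other more than its ff libraries did. Gmnc lost its call with any single library left out, with log2 fold changes of 2.28 to 2.44. Rfx2 kept its call only without dd replicate 1, and its log2 fold changes were 0.74 to 1.18 over these fits. By limma-trend neither was called (adjusted p = 0.0895 for Gmnc, 1.24-fold, and 0.0763 for Rfx2). DESeq2's Wald test called both higher (adjusted p = 0.0479 for Gmnc and 0.00055 for Rfx2). Trp73 had 3 and 0 counts in the dd libraries and 6 and 2 in the ff libraries, and Foxn4 was at 0 in all 4.

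Markers of epithelium moved in the same direction as Foxj1 and Gmnc. On a list of 11 uterine epithelial genes, 6 rose in the dd libraries and 0 fell, the median log2 fold change was 1.01, and the summed level was 2996 and 3424 CPM in the dd libraries, against 1214 and 1508 CPM in the ff libraries. Ovgp1, the oviductal glycoprotein gene, on a list of 3 oviduct markers of which 1 rose and 0 fell, had 2878 and 3776 counts in the dd libraries, against 898 and 775 in the ff libraries (log2 fold change 2.25, SE 0.0905, edgeR adjusted p = 0.00644). On the other side, 6 of 7 endothelial markers and 3 of 10 stromal markers fell in the dd libraries, with median log2 fold changes of -0.96 and -0.68. All these counts stand beside 4.52% called higher and 3.86% called lower among all tested genes. The 7 smooth muscle markers and the 4 mesothelial markers gave 0 calls by edgeR, with medians of 0.25 and -0.26; Wt1, a mesothelial marker, was the 1 gene among them with an unadjusted p under 0.05 and was lower by DESeq2. The part of these cell-type differences in the cilia gene values was not tested. In whole uterus a change in the number of cells of a type cannot be told apart from a change in RNA per cell.

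**Figure D3:**
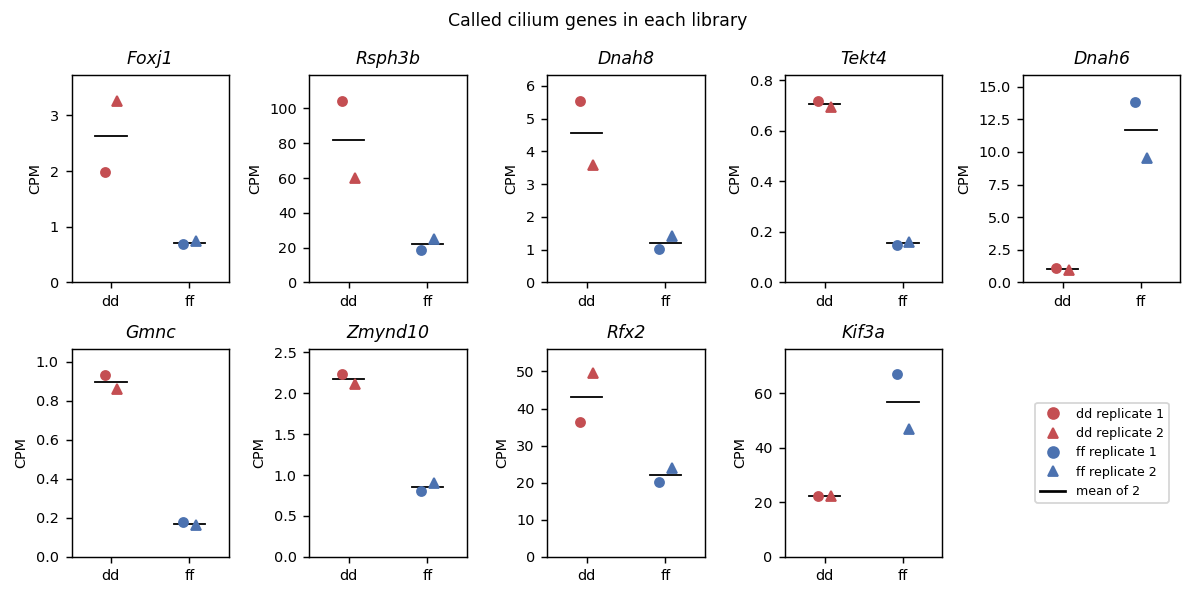
CPM (linear axes from 0) in each library for the 5 called motile cilia genes (top row) and the 4 called genes of the further cilium lists (bottom row), with libraries labelled dd on the left and ff on the right of each panel, and a line at the mean of 2 libraries. Foxj1, Rsph3b, Dnah8, Tekt4, Gmnc, Zmynd10 and Rfx2 are higher in both dd libraries, and Dnah6 and Kif3a are lower.

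Dynein heavy chains are the motor subunits of the axonemal arms. Of the 12 Dnah genes 10 were tested; 1 rose in the dd libraries, 1 fell, and the median log2 fold change was -0.22. Dnah6, an inner-arm heavy chain gene at chromosome 6, 73017606 to 73221651 (GRCm38), had 27 and 30 counts in the libraries labelled dd, against 461 and 298 in the libraries labelled ff. Both dd libraries were far below both ff libraries, and the replicates within each group were closer to each other than to the other group. The mean was 1.07 ± 0.108 CPM in the dd libraries and 11.7 ± 3.02 CPM in the ff libraries (SD, n = 2 each), so that the dd level was 0.0911 of the ff level (log2 fold change -3.46, SE 0.289, edgeR adjusted p = 0.0165). The level was 0.0857 and 0.0751 FPKM in the dd libraries and 1.05 and 0.720 FPKM in the ff libraries. Leaving out ff replicate 1 gave an adjusted p of 0.0504, and Dnah6 was called when any of the other 3 libraries was left out, with log2 fold changes of -3.70 to -3.16. On limma-trend's log2(FPKM + 0.5) scale the log2 fold change was -1.24 (adjusted p = 0.0308). Gm20560, an annotated gene that overlaps Dnah6 exons on the opposite strand by up to 167 bases, had 2 and 1 counts in the dd libraries and 62 and 24 in the ff libraries (log2 fold change -4.46, SE 0.784, edgeR adjusted p = 0.0400). The sources used here do not say whether the counting used strand, so reads of the gene pair cannot be told apart where they overlap.

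Dnah8, an outer-arm heavy chain gene at chromosome 17, 30624354 to 30877365, moved the other way. It had 131 and 109 counts in the dd libraries, against 34 and 44 in the ff libraries, with no overlap between the groups. The mean was 4.57 ± 1.37 CPM in the dd libraries and 1.22 ± 0.276 CPM in the ff libraries (SD, n = 2 each), a 3.74-fold difference (log2 1.90, SE 0.346, edgeR adjusted p = 0.0420). Dnah8 was not called with any single library left out, with log2 fold changes of 1.57 to 2.19. With limma-trend on log2(FPKM + 0.5) the difference was 1.23-fold (adjusted p = 0.130). DESeq2's Wald test called Dnah8 higher (adjusted p = 0.000566). Exons of other genes on the opposite strand cover 650 of the 26820 exonic bases of Dnah8; one partner is Glo1, the glyoxalase 1 gene, with 2978 and 3536 counts in the dd libraries and 2277 and 1741 in the ff libraries (log2 fold change 0.97, SE 0.127, edgeR adjusted p = 0.0264).

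The other heavy chain genes did not pass edgeR's test. Dnah14 had 899 and 1156 counts in the dd libraries and 268 and 732 in the ff libraries (log2 fold change 1.27, edgeR adjusted p = 0.171), and DESeq2's Wald test called it higher in the dd libraries (adjusted p = 0.0323). Its ff libraries differed strongly: the log2 fold change was 2.24 without ff replicate 2 (adjusted p = 0.0132), and 0.70 (0.0962) with ff replicate 1 left out. Exons on the opposite strand cover 907 of the 16235 exonic bases of Dnah14. Dnah11, an outer-arm gene, had 9 and 19 counts in the dd libraries and 4 and 6 in the ff libraries (log2 fold change 1.69, adjusted p = 0.109). Dnah5, the outer-arm chain most often named in human primary ciliary dyskinesia, had 184 and 220 counts in the dd libraries and 181 and 197 in the ff libraries (log2 fold change 0.35, adjusted p = 0.283). Dnah1 and Dnah2, both inner-arm genes, had lower values in both dd libraries: 147 and 167 counts in the dd libraries against 283 and 332 in the ff libraries for Dnah1 (log2 fold change -0.71, adjusted p = 0.101). Dnah2 had 34 and 64 counts in the dd libraries and 84 and 126 in the ff libraries (log2 fold change -0.88, adjusted p = 0.192). Dnah9 and Dnah12 were too low to be tested.

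Of the 4 Dnaaf genes, whose products fold and preassemble dynein arms in the cytoplasm, 3 were tested and 0 passed edgeR's test, with a median log2 fold change of -0.07. Dnaaf3 had 75 and 95 counts in the dd libraries and 185 and 176 in the ff libraries (log2 fold change -0.83, adjusted p = 0.0762). Its groups did not overlap, with both dd libraries lower; it was the 1 gene of the 3 with an unadjusted p under 0.05, and DESeq2's Wald test called it lower. Dnaaf5 had 578 and 694 counts in the dd libraries and 783 and 742 in the ff libraries, a log2 fold change of 0.00 after scaling to depth (adjusted p = 0.998). Zmynd10, a dynein assembly gene on a list of 52 further axoneme and assembly genes, had 53 and 64 counts in the dd libraries against 27 and 28 in the ff libraries (log2 fold change 1.34, SE 0.265, edgeR adjusted p = 0.0492). The call was lost with any single library left out, with log2 fold changes of 1.27 to 1.42. DESeq2's Wald test gave an adjusted p of 0.0534, and limma-trend called Zmynd10 at 1.69-fold (adjusted p = 0.0388). Among the 35 tested genes of that list, whose median log2 fold change was -0.11, it was the one call by edgeR, beside 4.52% higher and 3.86% lower among all tested genes. At an unadjusted p under 0.05, 2 genes of the list were higher and 6 lower in the dd libraries, beside 29.3% of all tested genes in either direction. DESeq2's Wald test called 3 genes of the list, all lower in the dd libraries: Dnaic2 (log2 fold change -1.60, adjusted p = 0.0442), Fbxl13 (-1.07, 0.0233) and Mns1 (-1.29, 0.00749). Of all genes tested by DESeq2, 6.97% were called lower and 7.88% higher.

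Radial spokes connect the outer doublets to the central apparatus. Of 8 Rsph genes 5 were tested; 1 rose in the dd libraries, 0 fell, and the median log2 fold change was 0.16. Rsph3b, at chromosome 17, 6904413 to 6948682, had 2467 and 1816 counts in the libraries labelled dd, against 625 and 783 in the libraries labelled ff. Both dd libraries were well above both ff libraries. The mean was 82.1 ± 31.4 CPM in the dd libraries and 21.9 ± 4.49 CPM in the ff libraries (SD, n = 2 each), a 3.74-fold difference (log2 1.90, SE 0.309, edgeR adjusted p = 0.0354). At 33.3 and 19.3 FPKM in the dd libraries, against 6.03 and 8.05 FPKM in the ff libraries, it was far more abundant per length than the other called motile cilia genes. The call held without dd replicate 1 (adjusted p = 0.0459) and dd replicate 2 (0.0388), and was lost when ff replicate 1 (0.124) or ff replicate 2 (0.0554) was left out.

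Rsph3a is a near-identical copy of Rsph3b on the same chromosome: 75.8% of the 50-base windows of Rsph3b transcripts also occur in Rsph3a transcripts, so the assignment of reads between them is uncertain. Rsph3a had 434 and 557 counts in the dd libraries and 486 and 568 in the ff libraries (log2 fold change 0.16, edgeR adjusted p = 0.531). The copies together had 2901 and 2373 counts in the dd libraries, against 1111 and 1351 in the ff libraries, so the sum was higher in both dd libraries too. The less abundant spoke genes were Rsph6a, with 0 and 0 counts in the dd libraries and 0 and 2 in the ff libraries, and Rsph14, with 0 and 0 counts in the dd libraries and 0 and 1 in the ff libraries.

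Tektins are filament-forming proteins of the doublet microtubules. Of 5 Tekt genes 4 were tested; 1 rose in the dd libraries and 0 fell. Tekt4 had 17 and 21 counts in the dd libraries, against 5 and 5 in the ff libraries. The libraries of each group were close together and the groups did not overlap. The log2 fold change was 2.15 (SE 0.380, edgeR adjusted p = 0.0402). The ratio of summed counts, scaled to summed library sizes, was 4.54 with a counting interval of 2.22 to 10.2. Tekt4 was not called with any single library left out, with log2 fold changes of 2.11 to 2.20. DESeq2's Wald test gave an adjusted p of 0.118. With limma-trend on log2(FPKM + 0.5) it was called at 1.48-fold (adjusted p = 0.0401). Tekt2, the most abundant tektin gene, had 154 and 112 counts in the dd libraries and 241 and 253 in the ff libraries (log2 fold change -0.59, edgeR adjusted p = 0.282). Tekt1 had 15 and 60 counts in the dd libraries and 42 and 47 in the ff libraries, so that the dd libraries lay on both sides of the ff libraries.

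**Figure D4:**
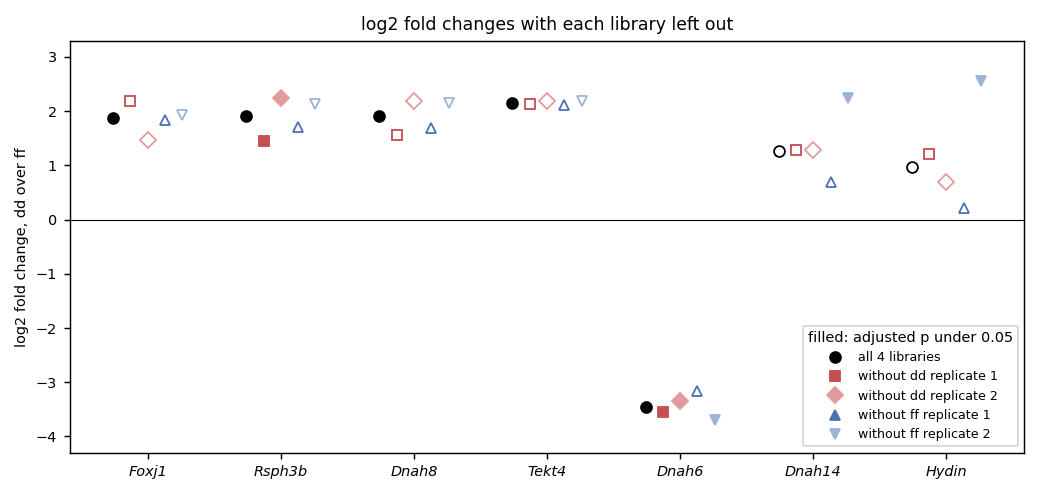
edgeR log2 fold changes, libraries labelled dd over libraries labelled ff, with all 4 libraries (black) and with each library left out in turn; filled marks have an adjusted p under 0.05. The direction of Foxj1, Rsph3b, Dnah8, Tekt4, Dnah6, Dnah14 and Hydin was the same in each of these fits, whereas the call was lost in 1 or more of them for each of the 5 called genes.

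A palindromic element was read from the promoters of these genes, because transcription factors of the RFX family, among them Rfx2, bind inverted repeats of this kind (the X-box) in promoters of cilia genes. Promoter windows from 250 bases before to 50 after the start were taken from RefSeq (GRCm38.p6) and were found for 57 of the 70 genes, in 64 windows. Windows were searched for GTTGC and GCAAC separated by 3 or 4 bases in between, a pattern that is the same on both strands. The letters were chosen after the sequences had been seen, so the shares below describe the windows and cannot serve as a test of enrichment. The pattern was in 8 of the 64 windows (12.5%), which belong to Cfap298, Cfap44, Dnah6, Hydin, Rsph3b, Tekt2 and Tekt4, against 0.399% of all 32851 windows. The shorter string GTTGCC, on either strand, was in 37.5% of the 64 windows and 12.5% of all windows. Windows that hold this string but not the inverted repeat made up 26.6% of the 64 and 12.2% of all windows. A match is a description of letters in the window and not a binding site. The stretches below show the element, in capitals, in 5 of the genes with values above, each 5′ to 3′ on the strand of its gene: Dnah6 (chr6:73221640-73221727, minus strand), which fell, Rsph3b (chr17:6948335-6948407, minus strand) and Tekt4 (chr17:25471494-25471581, plus strand), which rose, and Hydin (chr8:110266896-110266976, plus strand) and Tekt2 (chr4:126325690-126325777, minus strand), which did not pass the test.
Dnah6: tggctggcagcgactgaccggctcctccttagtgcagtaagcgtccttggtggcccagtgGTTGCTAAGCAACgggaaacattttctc
Rsph3b: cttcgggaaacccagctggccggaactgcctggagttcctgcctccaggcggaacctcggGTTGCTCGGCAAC
Tekt4: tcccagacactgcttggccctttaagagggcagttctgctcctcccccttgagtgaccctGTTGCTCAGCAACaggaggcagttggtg
Hydin: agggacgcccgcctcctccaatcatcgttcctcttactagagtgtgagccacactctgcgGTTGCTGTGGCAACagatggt
Tekt2: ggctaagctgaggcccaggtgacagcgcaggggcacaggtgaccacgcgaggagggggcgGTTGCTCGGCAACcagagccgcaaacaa
The element began 36 bases before the RefSeq start in Dnah6, 36 before it in Tekt4, 29 before it in Tekt2, 21 before it in Hydin and 10 after it in Rsph3b. Of the genes with the element, Dnah6 fell and Rsph3b and Tekt4 rose. Cfap298, Hydin and Tekt2 were not called, and Cfap44 was not tested. Of all tested genes, 4.52% rose and 3.86% fell, and counts this small are not read as particular to the element.

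The central apparatus, the nexin-dynein regulatory complex and the axonemal ruler gave 0 calls among their 5 tested genes. Hydin, a giant protein of the central apparatus, had 306 and 559 counts in the dd libraries and 89 and 420 in the ff libraries (log2 fold change 0.96, edgeR adjusted p = 0.434). The ff libraries differed 5.04-fold in CPM and their range overlapped that of the dd libraries. Its log2 fold change was 2.55 without ff replicate 2 (adjusted p = 0.0325), and 0.22 (0.697) with ff replicate 1 left out. Spag6, another central apparatus gene, had 15 and 13 counts in the dd libraries and 13 and 20 in the ff libraries (log2 fold change 0.03, with a sign that turned under another scaling and with single libraries left out). Spag16, also of the central apparatus, had 1 and 0 counts in the dd libraries and 5 and 2 in the ff libraries. Ccdc39 and Ccdc40, which together set the repeat length of the axoneme, did not pass the test. Ccdc39 had 347 and 481 counts in the dd libraries and 532 and 576 in the ff libraries (log2 fold change -0.17, adjusted p = 0.467), and 1256 of its 7443 exonic bases overlap exons of a gene on the opposite strand. Ccdc40 had 91 and 159 counts in the dd libraries and 113 and 157 in the ff libraries (log2 fold change 0.11, adjusted p = 0.835); its direction was not fixed, since it was below 0 when some single libraries were left out. None of these genes reached an unadjusted p under 0.05. Drc3, of the regulatory complex, had 54 and 63 counts in the dd libraries and 79 and 94 in the ff libraries (log2 fold change -0.30), and Drc1, another subunit, had 4 and 0 counts in the dd libraries and 7 and 6 in the ff libraries, too few for a test.

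None of the 18 tested Cfap genes passed edgeR's test, with log2 fold changes from -0.98 to 1.74 and a median of -0.03. At an unadjusted p under 0.05 there were 4 of the 18 (Cfap54, Cfap69, Cfap74 and Cfap126), beside 29.3% of all tested genes in either direction. DESeq2's Wald test called Cfap69 and Cfap74 lower in the dd libraries, beside 6.97% lower among all its tested genes. Cfap54, which encodes a central apparatus protein, had 23 and 28 counts in the dd libraries, against 8 and 10 in the ff libraries (log2 fold change 1.74, adjusted p = 0.0504). Its groups did not overlap, with both dd libraries higher, and edgeR called it with DESeq2's size factors (adjusted p = 0.0499) and without the filter (0.0287). At the other end, Cfap69 had 124 and 167 counts in the dd libraries and 291 and 387 in the ff libraries (log2 fold change -0.98, adjusted p = 0.0733). Cfap126, whose product is a basal body protein also known as Flattop, had 56 and 73 counts in the dd libraries and 135 and 167 in the ff libraries (log2 fold change -0.98, adjusted p = 0.0834). Cfap74 had 179 and 203 counts in the dd libraries and 354 and 402 in the ff libraries (log2 fold change -0.72, adjusted p = 0.0833). In these 3 genes both dd libraries were lower than both ff libraries. Cfap53, which has a role in dynein arm docking and left-right patterning, is given for its spread: it had 21 and 31 counts in the dd libraries and 15 and 50 in the ff libraries, which differed 3.56-fold in CPM and lay on both sides of the dd libraries.

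Further ciliated cell markers were low as well. Of 16 such genes 5 had enough counts for a test and 0 passed edgeR's test (2 at an unadjusted p under 0.05, and 1 lower by DESeq2's Wald test, Ccdc170); the median log2 fold change was -0.31, and the summed level was 13.3 and 12.8 CPM in the dd libraries and 15.4 and 16.7 CPM in the ff libraries. Fam216b and Sec14l3, on that list, were at 0 in all 4 libraries. Of 16 sperm and testis genes, read because day 4 uteri have been exposed to mating, 5 were tested and 0 passed by edgeR or DESeq2 (1 at an unadjusted p under 0.05; median log2 fold change -0.29), with Tnp1, Smcp and Pgk2 at 0 in all 4 libraries. The sum was 5.84 and 4.29 CPM in the dd libraries and 6.48 and 6.06 CPM in the ff libraries. Of 41 genes of intraflagellar transport and the primary cilium, all tested, 0 rose and 1 fell, with a median of -0.05. Among all tested genes 4.52% rose and 3.86% fell by edgeR, and 29.3% had an unadjusted p under 0.05 in either direction. By DESeq2's Wald test 6.97% of all its tested genes were lower. Kif3a, a subunit of the kinesin motor that carries cargo along cilia, had 526 and 672 counts in the dd libraries, against 2237 and 1458 in the ff libraries (log2 fold change -1.36, SE 0.192, edgeR adjusted p = 0.0289). Both dd libraries were lower than both ff libraries. The call was kept without ff replicate 2 (adjusted p = 0.0149) and lost without dd replicate 1 (0.0783), dd replicate 2 (0.0883) and ff replicate 1 (0.0583).

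By position, 3 of the 4 motile cilia genes that rose lie on 1 chromosome, a grouping made after their values were seen. Chromosome 17, which carries Mapk14 (28691329 to 28748406), held 6 of the 46 tested motile cilia genes, of which 3 rose (Dnah8, Rsph3b and Tekt4) and Rsph1, Rsph3a and Rsph9 were not called. On the other chromosomes 1 of 40 rose and 1 fell. Among all tested genes, 4.62% of those on chromosome 17 and 4.52% of those elsewhere were called higher. Dnah8 and Tekt4 lie 1.93 and 3.24 Mb from the start of Mapk14. Within 5 Mb of it, a distance chosen after the positions were seen, 2 of 3 tested motile cilia genes rose, beside 5.2% of all 250 tested genes there. Rsph3b lies farther off, 21.8 Mb from the start of Mapk14, and Rfx2, also on chromosome 17, lies 28.1 Mb from it. Whether position near the targeted locus has a part in these values was not tested, and the sources used here do not give the strain of origin around the locus.

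The authors' deposited table, with its own p-values, gave a p under 0.05 for 12 of the 68 motile cilia genes with a count, 9 higher and 3 lower in the dd libraries, beside 9.93% of all genes with a count. They were Foxj1, Mcidas, Rsph3b, Dnah8, Dnah11, Dnah14, Hydin, Tekt4 and Cfap54 on the higher side, and Dnah6, Cfap69 and Cfap126 on the lower side. All 5 genes called by edgeR were among the 12 in the authors' deposited table.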

How the data were processed

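Total RNA of whole uteri was prepared with TRIzol and sequenced as poly(A)-selected Illumina TruSeq libraries, per the labels' protocols. STAR, edgeR and the mm10 build are named in the submitters' processing notes, without versions or roles; the counter, annotation and strand setting are not named in the sources used here. Per the file headers, the authors deposited raw read counts per gene, a rescaled signal, FPKM, a fold ratio and a p-value. The rescaled signal was not used. The motile cilia genes, the gene lists and the named genes were chosen with earlier results of these data known.

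Deposited counts of the 4 libraries were tested with edgeR 4.0.16 in R 4.3.3 (quasi-likelihood F test, TMM scaling, filterByExpr, Benjamini-Hochberg adjustment over all 18530 genes, call at an adjusted p under 0.05). CPM uses TMM-scaled library sizes, and SE is the log2 fold change divided by the square root of F. The biological coefficient of variation was 0.185. Libraries of a group differed by more than repeat counting of 1 library would give (chi-square per degree of freedom 32.6 for dd and 32.0 for ff), so none was merged as a duplicate; this does not show separate animals. Alternatives used DESeq2 1.42.0 and limma 3.58.1 on log2(FPKM + 0.5). The procedure was tested on simulated data. Intervals at 95% are exact and cover counting error only. Gene positions are those of GENCODE M21 (GRCm38). Named are the 9 genes of the symbol rule, every called gene, the 2 with the highest mean FPKM in each role group, the 3 largest changes in each direction, genes whose libraries of a group differ over 3-fold, called genes of the cilium lists, and Ovgp1. Dnah2, Dnah5, Dnah11, Cfap54, Cfap74, Rsph6a, Rsph14, Glo1, Gm20560, Trp73, Foxn4, Ccdc170, Dnaic2, Fbxl13, Mns1, Wt1 and the genes listed at 0 were added after their values were seen. Of the 70 genes, 32 overlap exons of a gene on the other strand.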

Additional observations from a re-analysis of the deposited data

How the results depend on the processing

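With 4 motile cilia genes called higher and 1 lower, the number higher was 2 by limma-trend, and 0 to 2 with each library left out; it stayed within 1.5 times of 4 under DESeq2 size factors, library sizes without TMM factors, no filter, a filter of 1 CPM and DESeq2's Wald test. The number lower was 2 without a filter, 4 by DESeq2's Wald test and 0 to 1 with each library left out. For the further cilium lists, 4 genes were called, against 2 with library sizes without TMM factors, 10 without a filter, 8 by DESeq2's Wald test, 2 by limma-trend and 0 to 2 with each library left out. Replicate numbers are shared between the groups but did not pair the libraries (correlation of the deviations 0.0129). With the replicate number as a block, 1 motile cilia gene was called higher (beside 4.74% of all tested genes) and 1, Dnah6, lower (beside 3.52%). In that fit 2 genes of the further lists were called, beside 8.26% of all tested genes in either direction. The median log2 fold change of the 46 genes, -0.0089, was -0.0935 with library sizes without TMM factors, which moved the median of all genes to -0.0815, and -0.145 to 0.0694 with each library left out. Directions of genes near 0 reversed: over the fits with 1 library left out, Ccdc40 ranged from -0.145 to 0.421, Spag6 from -0.284 to 0.423, Dnaaf5 from -0.0404 to 0.0492, Tekt1 from -1.12 to 0.523, Cfap53 from -0.741 to 1.08 and Cfap36 from -0.149 to 0.130. Cfap53, -0.0924 with all libraries, was 0.0604 with the replicate block and 0.000243 by limma-trend. Spag6 was -0.0531 with library sizes without TMM factors. Dnaaf5 was -0.00191 with DESeq2 size factors, -0.0836 with library sizes without TMM factors, -0.000197 without a filter, -0.00698 with the filter of 1 CPM, -0.00218 by DESeq2 and -1.32e-05 by limma-trend. The cause of these changes was not tested. The 24 genes under the filter, with at most 38 counts in all, have no test with all 4 libraries and that filter. Without the filter 68 genes were tested. DESeq2's Wald test covered 48, and the fits with single libraries left out covered 47 to 49.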
